A study of Homo sapiens with 30 samples.

Results

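The 40 genes described here encode the core machinery of DNA replication, and they were followed by RNA-Seq in 30 libraries of 2 human cell lines treated with Omomyc. The genes were chosen by name, with earlier results of these data known, as replication licensing, polymerase and clamp genes. All 40 were found among the 57992 genes of the deposited expression table. HCT116 cells, a colorectal carcinoma line in which the labels describe MYC as stabilized, were sequenced untreated and after 6 or 24 h with Omomyc at 2 or 10 μM. A second line, Ramos, comes from a Burkitt's lymphoma with a MYC translocation, and it was sequenced untreated and at 0.5 and 2.5 μM after the same times. Each of the 10 groups held 3 libraries, and each line had 1 untreated group that served both times. The labels give the lower HCT116 dose as 2 μM, whereas the study's methods name 2.5 μM. The libraries titled 24 h carry a time tag of 4 h in the labels, and the titles were used. ProteoJuice, a protein delivery reagent, was used for HCT116 cells, and the methods do not say plainly whether the untreated HCT116 cells received it, so that an effect of the reagent and one of Omomyc cannot be told apart. Each line is a single cell line, and nothing in the labels says that the 3 libraries of a group came from separate cultures, so the p-values measure the spread between these libraries, which may be technical.

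Omomyc is a recombinant miniprotein derived from the basic helix-loop-helix leucine zipper domain of MYC, which pairs with MYC and MAX and competes for the E boxes that MYC/MAX heterodimers bind. Replication begins when the origin recognition complex (ORC) marks origins in G1 phase and CDC6 and CDT1 load the ring-shaped MCM2 to MCM7 helicase there. In S phase, CDC45, the GINS complex and MCM10 turn the loaded ring into a moving helicase, polymerase alpha-primase lays down primers, and polymerases delta and epsilon extend them while tethered to the sliding clamp PCNA, which the RFC complex loads. FEN1 and LIG1 process and seal Okazaki fragments, and replication protein A (RPA) coats the single strands. Transcription of many of these genes rises at the entry into S phase under E2F factors, and MYC promotes that entry in proliferating cells. The comparisons below ask whether their RNA changed after Omomyc, by how much, and how the 2 lines differed.

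All 40 members were at or above 0.5 RPKM (read counts scaled by transcript length and library size) in each of the 30 libraries, and 0 of their values were at 0. The sum of RPKM over all genes ran from 593633 to 1051041, and the 10 most abundant genes of a library took 23.8 to 31.4% of it in untreated HCT116, 35.8 to 54.2% in HCT116 at 6 h and 44.3 to 49.4% in untreated Ramos. HCT116 at 10 μM and 6 h replicate 3 stood apart, with the highest sum and the 54.2% share. The epithelial markers EPCAM, KRT8, KRT18, KRT19 and CDH1 together reached 1414 to 2231 RPKM in HCT116 libraries and at most 1.74 in Ramos, while the B cell markers MS4A1, CD79A, CD79B and PAX5 together reached 1064 to 1306 RPKM in Ramos and at most 0.449 in HCT116. The markers of other cells, VIM, COL1A1, COL1A2, PTPRC and CD3E, summed to 4.65 to 9.18 RPKM in HCT116 and 41.2 to 66.8 in Ramos, where PTPRC, a gene of all leukocytes, made up 40.9 to 66.4. Each line thus carried the markers of its label.

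Of the members, 34 had a promoter in RefSeq (GRCh38.p14), taken as 250 bases before to 50 bases after the start site. The E2F patterns searched, TTTCCCGC, TTTCGCGC, TTTGCCGC and TTTGGCGC on either strand, occurred in the promoters of 17 of these 34 members (50%) and of 3.99% of all genes with a promoter. The E box CACGTG occurred in 5 members (14.7%), namely MCM2, MCM7, ORC4, FEN1 and RPA1, and in 8.77% of all genes. A CCAAT box, on either strand, occurred in 20 members (58.8%) and in 39.7% of all genes. TTTGAA, the core of the CHR element of late cell cycle promoters, occurred on either strand in 0 of the 34 members and in 18.2% of all genes. A match is a description of letters and says nothing of binding. The 4 promoters below belong to members whose values carry the results, in this order: MCM2 at chr3:127598161-127598460, which fell in HCT116 and rose in Ramos, CDT1 at chr16:88803539-88803838 with the highest rise in Ramos, RPA1 at chr17:1829755-1830054 with the widest gap between the lines, and POLA1 at chrX:24693668-24693967 among the steepest falls in HCT116. All 4 are on the plus strand and are written 5′ to 3′, and capitals mark each E box and E2F match. In MCM2 the capitals are an E box followed by 2 overlapping E2F matches, in CDT1 and POLA1 an E2F match, and in RPA1 an E box.
MCM2: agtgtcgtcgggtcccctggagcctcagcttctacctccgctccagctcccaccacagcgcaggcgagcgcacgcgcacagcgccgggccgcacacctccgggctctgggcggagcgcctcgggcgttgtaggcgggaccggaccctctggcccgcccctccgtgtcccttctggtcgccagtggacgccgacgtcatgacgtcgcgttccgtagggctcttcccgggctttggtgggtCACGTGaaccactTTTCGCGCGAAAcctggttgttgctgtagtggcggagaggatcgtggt
CDT1: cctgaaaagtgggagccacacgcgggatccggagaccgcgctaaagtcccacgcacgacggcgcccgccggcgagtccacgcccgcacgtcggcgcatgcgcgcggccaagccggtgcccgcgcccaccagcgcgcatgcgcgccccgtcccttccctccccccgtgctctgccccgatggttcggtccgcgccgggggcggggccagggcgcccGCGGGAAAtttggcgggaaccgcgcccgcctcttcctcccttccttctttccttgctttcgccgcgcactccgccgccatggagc
RPA1: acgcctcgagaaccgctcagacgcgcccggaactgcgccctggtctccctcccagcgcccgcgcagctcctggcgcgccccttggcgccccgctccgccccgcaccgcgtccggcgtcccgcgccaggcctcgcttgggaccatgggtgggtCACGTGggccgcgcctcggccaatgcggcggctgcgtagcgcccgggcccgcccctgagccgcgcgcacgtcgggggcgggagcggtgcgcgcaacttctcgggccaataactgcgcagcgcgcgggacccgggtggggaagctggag
POLA1: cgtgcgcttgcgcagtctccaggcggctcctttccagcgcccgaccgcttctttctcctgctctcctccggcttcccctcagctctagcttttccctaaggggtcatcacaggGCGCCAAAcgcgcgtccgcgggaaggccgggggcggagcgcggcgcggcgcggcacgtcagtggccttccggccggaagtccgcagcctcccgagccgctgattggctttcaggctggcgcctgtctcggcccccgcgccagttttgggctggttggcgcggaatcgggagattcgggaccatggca

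In untreated cells the members spanned a wide range of levels. Most of them differed between the lines, as did most genes (80% of the members and 84.6% of all genes by the test below). In HCT116 they stood between the 54.9th and the 98.2nd percentile of the genes with at least 0.5 RPKM, and in Ramos between the 35.8th and the 97.9th. MCM7, a helicase subunit, was the most abundant member in both lines, at 246, 247 and 247 RPKM in the 3 untreated HCT116 libraries and 229, 232 and 252 in Ramos. PCNA followed in both, at 209, 212 and 214 RPKM in HCT116 and 182, 179.7 and 193 in Ramos. The lowest member was POLD3, an accessory subunit of polymerase delta, in HCT116 (11.8, 11.6 and 12.1 RPKM) and RPA1, the largest RPA subunit, in Ramos. RPKM is scaled by transcript length, so that these levels may be set against each other, but a member that shares reads with another gene is uncertain. Another gene overlaps 17 members on the other strand and 11 on the same strand in GENCODE release 29 (among them PRIM1 with NACA and FEN1 with FADS2), and 6 members (PCNA, RFC3, RFC5, POLD2, FEN1 and RPA2) have pseudogenes by name.

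Differences between the lines were tested in limma on log2(RPKM + 0.5), which understates changes of low genes, and are given as log2 differences ± SE with 3 libraries a group and p-values adjusted by Benjamini-Hochberg over all genes tested, past the threshold when under 0.05. By this test 20 of the 40 members were higher and 12 lower in untreated HCT116 than in untreated Ramos, beside 84.6% of all genes past the threshold (45.7% higher and 39.0% lower). RPA1 had the widest gap, with 53.4, 43.6 and 45.7 RPKM in HCT116 and 5.81, 4.75 and 4.26 in Ramos. All 3 HCT116 libraries lay far above the 3 Ramos libraries (log2 difference 3.15 ± 0.12, adjusted p = 2.8e-07), while of its partners in the trimer RPA3 was lower in HCT116 (-0.41) and RPA2 did not pass the test (-0.02). Higher in HCT116 were also RFC5, a clamp loader subunit (70.1 and 20.5 RPKM on average, 1.75 ± 0.04, adjusted p = 1.84e-08), MCM2 (113 and 40.1 RPKM, 1.49 ± 0.06, adjusted p = 3.57e-07), and the primase subunits PRIM1 (1.26) and PRIM2 (1.02). Higher in Ramos were RFC3, another clamp loader subunit (28.9 RPKM in HCT116 and 62.3 in Ramos, -1.09 ± 0.06, adjusted p = 1.66e-06), and the ORC subunits ORC5 (-0.90) and ORC6 (-0.87). Subunits of 1 complex could thus differ in opposite directions between the lines, as RFC5 and RFC3 did. RPA1 overlaps SMYD4 and MCM2 overlaps TPRA1 on the other strand, and the strand setting of the counting is not given in the sources used here.

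**Figure D1:**
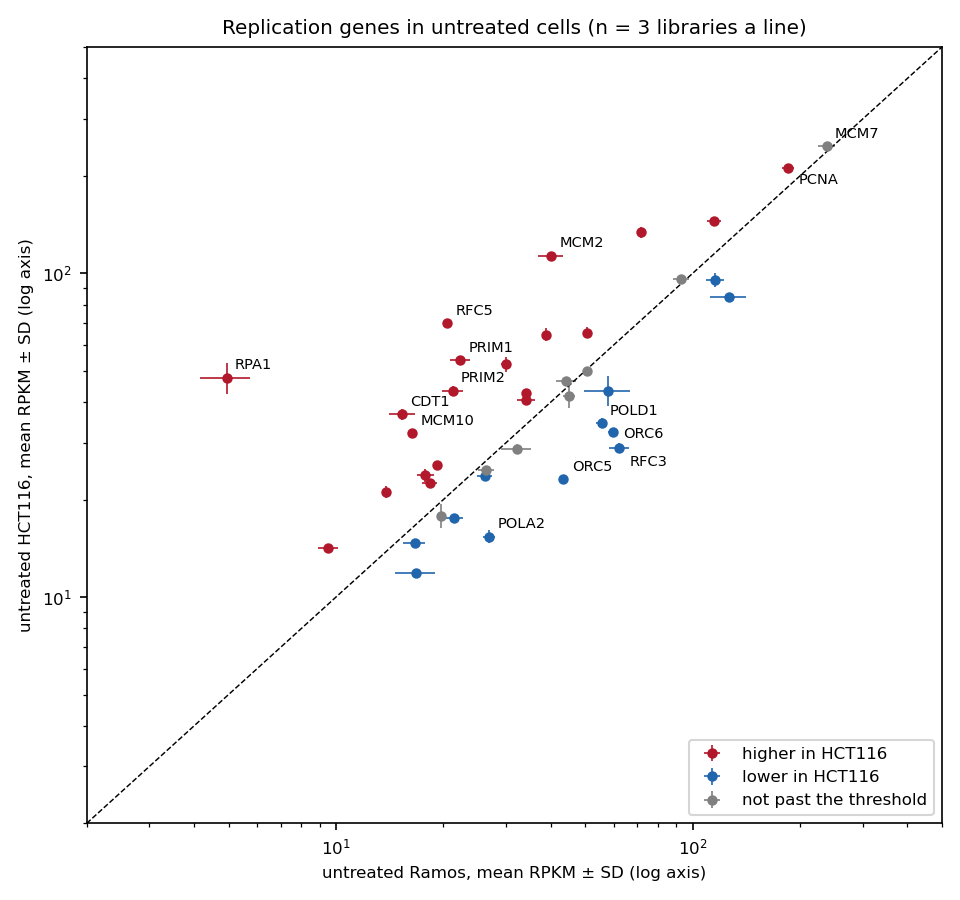
Mean RPKM of each of the 40 members in untreated HCT116 (vertical axis) against untreated Ramos (horizontal axis), both on log scales, with bars of ± 1 SD over 3 libraries. RPA1 lies farthest above the diagonal, at a mean of 47.6 RPKM in HCT116 and 4.94 in Ramos, and RFC3 lies farthest below it.

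After 6 h of 2 μM Omomyc, 14 members were lower and 1 was higher than in untreated HCT116. Among all 14550 genes tested 47.3% passed the threshold, 31.8% lower and 15.5% higher, so the share of members past it (37.5%) was below that of other genes, and the member median of -0.16 stood near the median of all genes of -0.12. The members differed by role. Polymerase alpha-primase, which starts each new strand, was lower in all 4 of its subunits with a median of -0.54, and the MCM2 to MCM7 helicase in 5 of 6 with a median of -0.33. All 3 treated libraries lay below all 3 untreated ones for 19 members and above them for 4, against 38.5% and 19.3% of all genes. The origin recognition complex had 0 of 6 past the threshold in either direction, its subunits spanning differences around a median of -0.07.

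POLA1, the catalytic subunit of polymerase alpha, was at 24.3, 25.0 and 24.5 RPKM in the untreated libraries and at 17.5, 14.4 and 16.9 after 2 μM for 6 h. Every treated library lay below every untreated one, and POLA1 fell to 0.67 times its untreated level on the RPKM + 0.5 scale (log2 difference -0.59 ± 0.08, adjusted p = 0.000521). PRIM2, the large primase subunit, went from 45.1, 43.2 and 42.0 to 29.4, 29.6 and 26.7 RPKM, again without overlap (-0.60 ± 0.07, adjusted p = 0.000181). PRIM1, the catalytic primase subunit, went from 53.0, 54.0 and 55.1 to 41.4, 40.4 and 33.2 RPKM (-0.49 ± 0.09, adjusted p = 0.00147), and POLA2, the regulatory subunit, fell least of the 4 (-0.20 ± 0.07, adjusted p = 0.0479). Of the helicase, MCM2 went from 115, 111 and 115 to 91.5, 78.6 and 81.9 RPKM. Its treated libraries all lay below the untreated ones (-0.43 ± 0.07, adjusted p = 0.000985), as did those of MCM6 (-0.36), MCM3 (-0.35), MCM4 (-0.30) and MCM7 (-0.30). MCM5 did not pass the test (-0.21 ± 0.08, adjusted p = 0.0624).

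Other roles moved less. Both clamp loader subunits that passed the test were lower, the large subunit RFC1 (-0.33) and RFC5 (-0.29). GINS1 and GINS4, subunits of the GINS complex, were lower (-0.22 and -0.32), as was POLD1, the catalytic subunit of polymerase delta (-0.29 ± 0.07, adjusted p = 0.0104). CDC6, the helicase loader, was the 1 member that was higher, at 49.3, 54.4 and 53.5 RPKM in untreated and 58.0, 61.5 and 58.9 in treated libraries (0.18 ± 0.06, adjusted p = 0.0411), and it lost the call when any of 5 of the 6 libraries was left out and turned to -0.15 with an equal sum of RPKM. Its partner CDT1 stood at 38.0, 35.2 and 37.0 RPKM before and 32.9, 37.2 and 40.4 after (-0.00048 ± 0.08, adjusted p = 0.996). PCNA (-0.04 ± 0.07, adjusted p = 0.637), FEN1 (-0.17), LIG1 (-0.09), RPA2 (-0.15) and CDC45 (-0.11) did not pass the test.

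The split between higher and lower members in HCT116 at 2 μM and 6 h depended on how the libraries were scaled. The 10 most abundant genes took 35.8 to 40.4% of the RPKM of these libraries and 23.8 to 31.4% of the untreated ones, and their part in the result was not tested. The median of all genes moved from -0.12 in the RPKM as deposited to 0.01 when the libraries were rescaled by the median ratio, and to -0.42 when they were rescaled to an equal sum. Under the median ratio 6 members were higher (MCM10, GINS2, GINS3, CDC6, ORC1 and ORC5) and 7 lower (MCM2, MCM3, MCM6, RFC1, POLA1, PRIM1 and PRIM2). Under an equal sum 0 were higher and 32 lower. The shares of all genes past the threshold under these scalings are not given here, so the member counts cannot be read against them. POLA1, PRIM1, PRIM2, MCM2, MCM3, MCM6 and RFC1 were thus lower under the deposited and the median-ratio scaling, with POLA1 and PRIM2 at -0.45 each under the second.

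After 6 h of 10 μM Omomyc, 11 members were lower and 0 higher than in untreated HCT116 (all genes: 30.0% past the threshold, 21.2% lower and 8.84% higher). The member median was -0.23 and that of all genes -0.11. POLA1, PRIM1, MCM2 and PRIM2 fell furthest, while POLA2, the other alpha-primase subunit, did not pass the test (-0.22). PRIM1 stood at 32.7, 34.6 and 33.1 RPKM (-0.68 ± 0.09, adjusted p = 0.00212) and PRIM2 at 25.4, 27.6 and 27.7 (-0.68 ± 0.09, adjusted p = 0.00256), with POLA1 at 16.4, 16.6 and 12.6 (-0.69 ± 0.13, adjusted p = 0.00746). All 3 genes lay below the untreated libraries in every treated library. MCM2 was lower as well (-0.68 ± 0.20, adjusted p = 0.0386), and so were MCM4 (-0.48), MCM6 (-0.56), RFC1 (-0.47), RFC5 (-0.45), the origin subunit ORC4 (-0.34), RPA2 (-0.34) and RPA1 (-0.59 ± 0.13, adjusted p = 0.0127). CDT1 (-0.15 ± 0.21, adjusted p = 0.613), LIG1 (-0.18) and PCNA (-0.21) did not pass the test.

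How many members passed the threshold changed with replicate 3 of that group, as it did for all genes. MCM2 was at 84.1, 84.1 and 49.6 RPKM in replicates 1 to 3, and RPA3, the small RPA subunit, at 31.7, 25.4 and 66.7, with replicate 3 lowest for MCM2 and highest for RPA3. The summed RPKM of the 40 members was 1928, 1924 and 1543 in the same order, and the epithelial marker sum of replicate 3, 1414 RPKM, was the lowest of the HCT116 libraries. Without replicate 3, 22 members passed the threshold, 20 of them lower and 2 higher (MCM10 and POLE), and MCM2 differed by -0.43, while the share of all genes past it was 51.2%. Without any 1 of the 3 untreated libraries 3 to 5 members passed it, beside 12.2 to 13.9% of all genes.

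**Figure D2:**
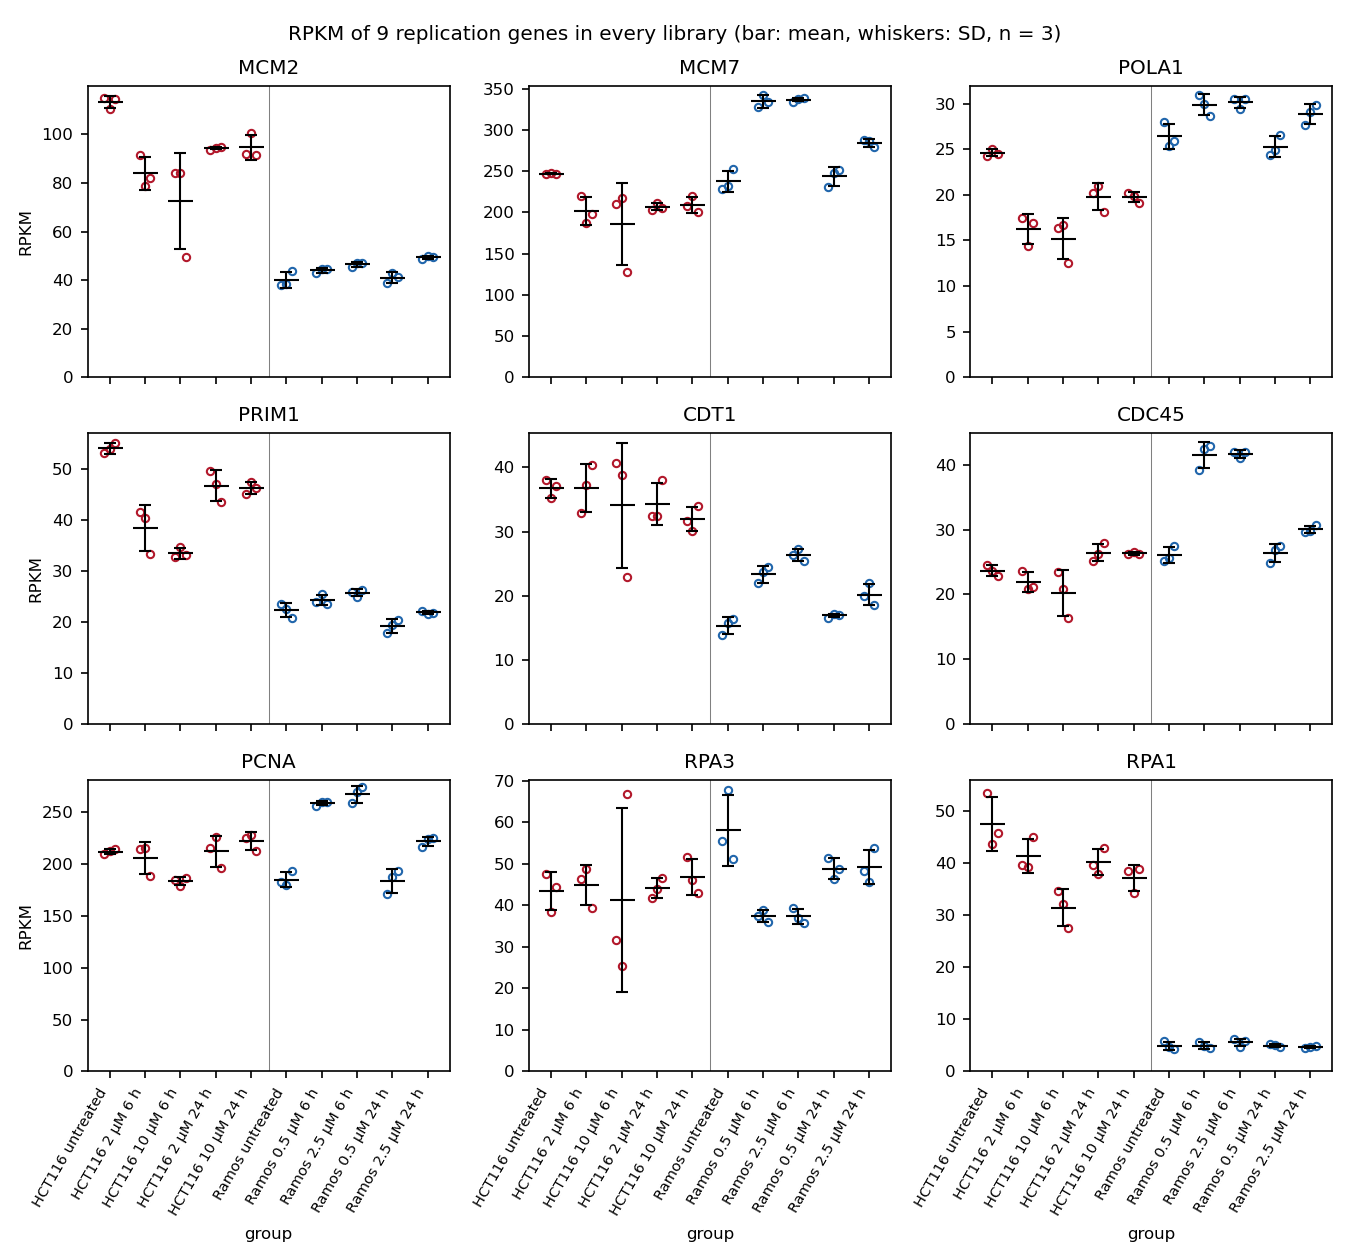
RPKM of 9 members (1 panel each) in every library, with 1 point per library and the mean ± SD over the 3 libraries of a group, HCT116 in red and Ramos in blue. POLA1 and PRIM1 in HCT116 at 6 h lie below their untreated libraries, CDT1, CDC45 and PCNA in Ramos at 6 h lie above theirs, and RPA3 in Ramos at 6 h lies below.

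At 24 h 5 of the 6 helicase genes and 3 of the 4 alpha-primase genes were lower in HCT116 at both doses. At 2 μM 13 members were lower and 1 higher (all genes: 27.3%, 10.8% lower and 16.6% higher), and at 10 μM 14 were lower and 2 higher (all genes: 35.2%, 15.7% lower and 19.5% higher). The member medians of -0.05 and -0.07 lay below the medians of all genes of 0.04 and 0.02. MCM2, MCM3, MCM4, MCM6 and MCM7 were lower at both doses. Of the helicase, MCM6 changed most, from 67.9, 62.5 and 63.7 RPKM to 52.9, 51.6 and 48.6 at 2 μM (-0.34 ± 0.05, adjusted p = 0.00262) and 52.6, 47.4 and 52.9 at 10 μM (-0.34 ± 0.06, adjusted p = 0.00204). At neither dose did its treated libraries overlap the untreated ones. MCM2 was at 93.7, 94.6 and 94.8 RPKM at 2 μM (-0.26 ± 0.04, adjusted p = 0.0025) and at 91.9, 101 and 91.6 at 10 μM (-0.26 ± 0.05, adjusted p = 0.00422). The 2 doses share their untreated libraries, so that their agreement is no independent check.

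POLA1 stood at 20.2, 21.0 and 18.1 RPKM at 2 μM and 24 h and at 20.2, 19.9 and 19.1 at 10 μM, below all its untreated libraries (-0.31 ± 0.06, adjusted p = 0.00754, and -0.31 ± 0.05, adjusted p = 0.00165). PRIM1 (-0.21 and -0.22), PRIM2 (-0.22 and -0.24), GINS1 (-0.28 and -0.27), GINS3 (-0.20 and -0.20) and the flap nuclease FEN1 (-0.23 and -0.20) were lower at both doses too. RFC3 (-0.19 ± 0.05, adjusted p = 0.0278) and RPA2 (-0.17 ± 0.05, adjusted p = 0.0266) were lower at 2 μM and missed the threshold at 10 μM (-0.06 and -0.08). RPA1 was lower at 10 μM, at 38.4, 34.3 and 38.8 RPKM against 53.4, 43.6 and 45.7 (-0.35 ± 0.08, adjusted p = 0.00873), and missed the threshold at 2 μM (-0.24). CDT1 (-0.20 ± 0.06, adjusted p = 0.0254) and RFC1 (-0.20) were lower at 10 μM.

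In the other direction, POLE, the catalytic subunit of polymerase epsilon, was higher at 24 h, going from 45.0, 42.1 and 38.1 RPKM to 47.7, 47.9 and 57.8 at 2 μM (0.29 ± 0.09, adjusted p = 0.0353) and 49.8, 47.3 and 54.6 at 10 μM (0.27 ± 0.07, adjusted p = 0.0166). CDC45 was higher at 10 μM (0.15 ± 0.05, adjusted p = 0.0467), a call that ended when any 1 of the 6 libraries was left out and turned to -0.034 with an equal sum of RPKM. CDC6 (-0.01 ± 0.05, adjusted p = 0.865), PCNA (0.07), POLD1 (-0.00048) and LIG1 (-0.12) did not pass the test at 10 μM. In the median-ratio scaling 17 members were lower and 1 higher at 2 μM, and 16 lower and 1 higher at 10 μM. The counts depended on the fit, since with all HCT116 groups in one fit 0 members at 2 μM and 2 at 10 μM passed the threshold (all genes: 7.51% and 17.1%). At 2 μM 7 passed it without a filter on low values, 8 with a block on replicate number, 6 without untreated replicate 3, and 9 without untreated replicate 1 or without 2 μM 24 h replicate 1. Among these alternatives and the median ratio, the shares of all genes are given for the one fit only. The other counts were not set against all genes.

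**Figure D3:**
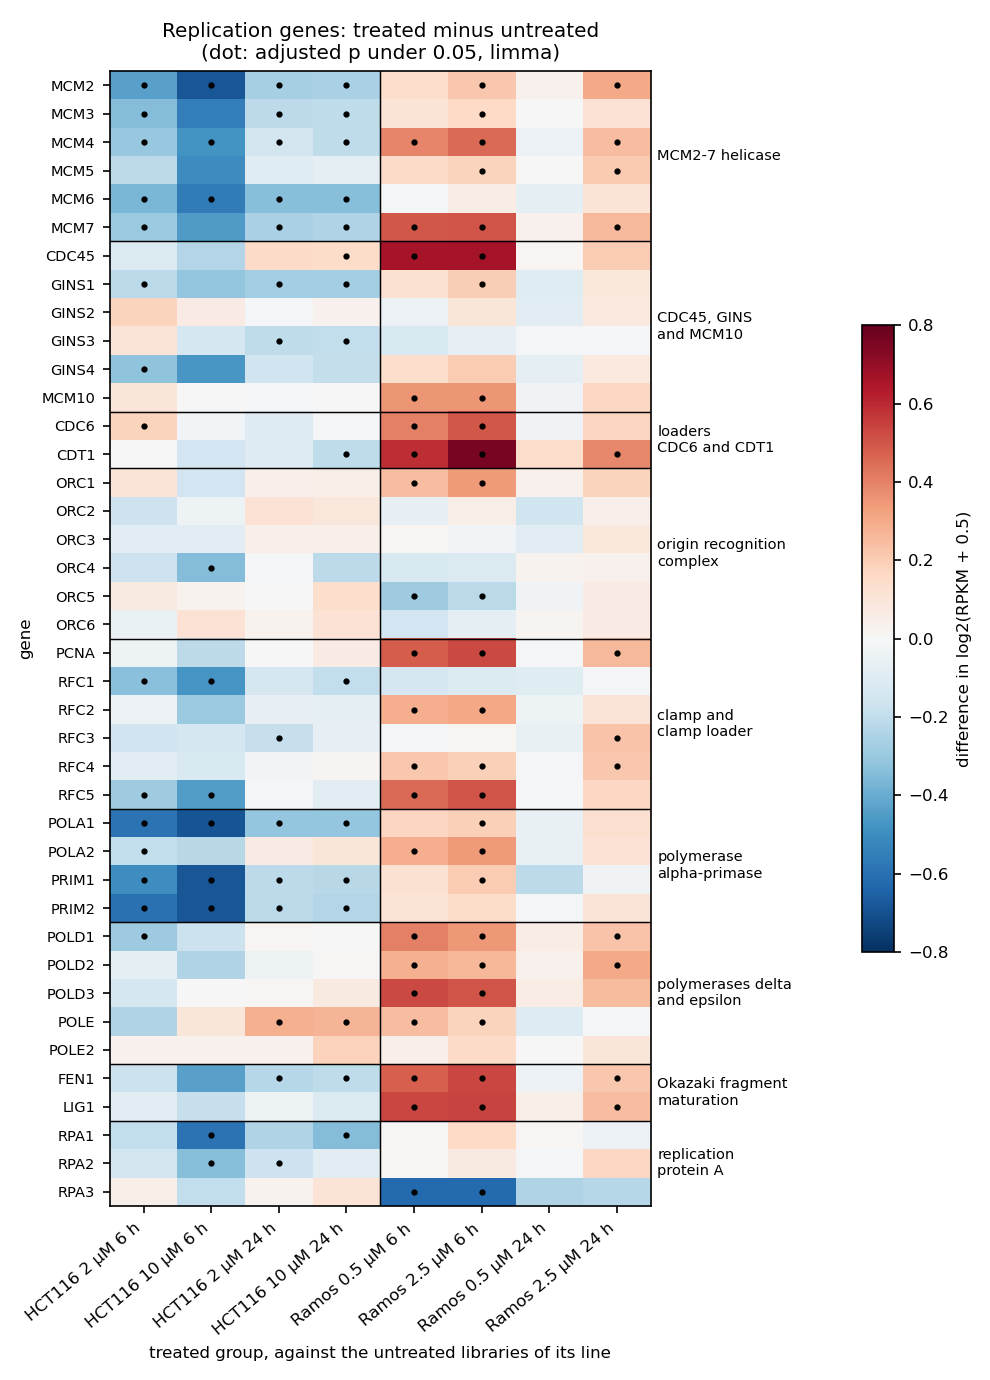
Log2 difference from untreated cells of the same line for the 40 members (rows, grouped by role) in the 8 treated groups (columns), in red for higher and blue for lower, with a dot where the adjusted p was under 0.05. HCT116 at 2 μM and 6 h has 14 blue dots and 1 red, and Ramos at 2.5 μM and 6 h has 24 red and 2 blue.

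Between 6 and 24 h at 2 μM in HCT116, 10 members were higher and 2 lower at 24 h (all genes: 40.8%, 30.9% higher and 9.85% lower). PRIM2 (0.38 ± 0.08, adjusted p = 0.00631), POLA1 (0.28 ± 0.10, adjusted p = 0.0431) and PRIM1 (0.28 ± 0.09, adjusted p = 0.0384) were among the higher, as were POLE (0.53) and POLD1 (0.31). The lower were GINS3 (-0.31) and CDC6 (-0.28). This direction turned with the scaling, since the median ratio gave 1 higher and 13 lower, without the share of all genes beside it. The median of all genes went from 0.16 to -0.02. At 10 μM, PRIM1 (0.46 ± 0.10, adjusted p = 0.032) and PRIM2 (0.45 ± 0.11, adjusted p = 0.0433) were the 2 members past the threshold (all genes: 7.86%, 5.8% higher and 2.06% lower), and by the median ratio 0 members passed it. The 2 calls were also lost with a block on replicate number, without 6 h replicate 1 or 2 and without any 24 h library, and 8 members passed without 6 h replicate 3. Of the 2 HCT116 doses compared with each other, 0 members passed the threshold in limma at 6 h (all genes: 0.0%) and 0 at 24 h (all genes: 0.18%, 0.14% higher and 0.0399% lower), with 1 and 2 members at an unadjusted p under 0.05. The 95% intervals of the member differences at 6 h lay within -0.95 to 0.79 and at 24 h within -0.39 to 0.33.

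In Ramos cells at 6 h most members that passed the test were higher. At 0.5 μM 18 were higher and 2 lower than untreated (all genes: 23.6%, 13.8% higher and 9.73% lower), and at 2.5 μM 24 were higher and 2 lower (all genes: 27.9%, 17.3% higher and 10.7% lower). The member medians were 0.14 and 0.19, beside 0.02 and 0.03 for all genes, and the summed RPKM of the 40 members was 1955 ± 53.6 (SD, n = 3) in untreated cells, 2329 ± 28.5 at 0.5 μM and 2382 ± 24.7 at 2.5 μM. At 2.5 μM the treated libraries all lay above the untreated ones for 27 members and below them for 5, against 26.3% and 18.3% of all genes. The median-ratio scaling gave 18 higher and 3 lower at 0.5 μM and 18 higher and 2 lower at 2.5 μM. Both doses were set against the same untreated libraries. The labels and methods name no delivery reagent for the Ramos libraries.

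CDT1, the helicase loader that is destroyed once S phase begins, was at 13.9, 15.7 and 16.4 RPKM in untreated Ramos, 21.9, 23.6 and 24.4 at 0.5 μM and 26.3, 27.2 and 25.4 at 2.5 μM. Neither dose overlapped the untreated libraries, and CDT1 was 1.70 times the untreated level at 2.5 μM on the RPKM + 0.5 scale (0.76 ± 0.07, adjusted p = 0.000168) after a smaller difference at 0.5 μM (0.59 ± 0.08, adjusted p = 0.000911). CDC45, the helicase activator, went from 25.2, 25.7 and 27.5 RPKM to 39.1, 42.4 and 42.8 at 0.5 μM and 42.0, 41.0 and 42.0 at 2.5 μM (0.66 ± 0.06, adjusted p = 0.000202, and 0.67 ± 0.05, adjusted p = 7.37e-05). LIG1, the ligase that seals Okazaki fragments, went from 32.4, 33.9 and 36.2 RPKM to 47.0, 51.4 and 50.3 at 0.5 μM and 49.2, 50.2 and 50.4 at 2.5 μM (0.53 ± 0.06, adjusted p = 0.000467, and 0.54 ± 0.05, adjusted p = 0.000192). For both genes every treated library at either dose lay above the highest untreated one. FEN1 was at 90.8, 89.3 and 98.5 RPKM untreated and 133, 135 and 136 at 2.5 μM (0.53 ± 0.05, adjusted p = 0.000119). PCNA was at 182, 179.7 and 193 RPKM untreated and 258, 269 and 274 at 2.5 μM (0.53 ± 0.04, adjusted p = 9.72e-05). CDC6, the partner of CDT1, was at 29.9, 30.9 and 29.01 RPKM untreated and 42.3, 42.2 and 42.5 at 2.5 μM (0.49 ± 0.04, adjusted p = 0.000153). None of these 3 overlapped its untreated libraries.

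By role, both loaders and both Okazaki fragment genes were higher at 2.5 μM and 6 h with medians of 0.63 and 0.54, followed by 4 of 5 polymerase delta and epsilon genes with a median of 0.26, 4 of 6 clamp and clamp loader genes at 0.25, 3 of 6 genes of CDC45, GINS and MCM10 at 0.20, 5 of 6 helicase genes at 0.20 and 3 of 4 alpha-primase genes at 0.19. The origin recognition complex had 1 higher and 1 lower with a median of -0.05, and RPA had 0 higher and 1 lower with a median of 0.07. POLD3 (0.50), RFC5 (0.50), MCM7 (0.50) and MCM4 (0.45) were among the highest of their roles. POLD1 (0.35 ± 0.04, adjusted p = 0.000861) and MCM10 (0.35 ± 0.05, adjusted p = 0.00198) were higher, as was ORC1, the ORC subunit with cell cycle-dependent levels (0.34 ± 0.06, adjusted p = 0.00269). MCM2 (0.22), PRIM1 (0.20) and POLA1 (0.19) passed the test at 2.5 μM and not at 0.5 μM (0.14, 0.12 and 0.17), and whether the doses differ was tested directly: 0 members passed the threshold in limma between the doses at 6 h (all genes: 0.429%, 0.185% higher and 0.244% lower, with 2 members at an unadjusted p under 0.05), with 95% intervals within -0.18 to 0.41.

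The 2 members that fell at 6 h were RPA3 and ORC5. RPA3 stood at 55.4, 67.7 and 51.1 RPKM in untreated Ramos, at 37.5, 38.7 and 35.9 at 0.5 μM and at 39.4, 36.9 and 35.7 at 2.5 μM. All 6 treated libraries lay below the 3 untreated ones (-0.62 ± 0.09, adjusted p = 0.00188, and -0.62 ± 0.09, adjusted p = 0.0019). ORC5 went from 42.4, 44.8 and 43.0 RPKM to 36.0, 36.3 and 34.6 at 0.5 μM and 39.6, 37.3 and 35.1 at 2.5 μM, also without overlap (-0.28 ± 0.05, adjusted p = 0.00398, and -0.22 ± 0.05, adjusted p = 0.0197). UMAD1 overlaps RPA3 on the other strand, so reads of the 2 genes may not be separable. RPA2, in contrast, stood at 50.7, 49.0 and 51.5 RPKM untreated and 52.6, 53.4 and 53.1 at 2.5 μM (0.07 ± 0.04, adjusted p = 0.222).

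**Figure D4:**
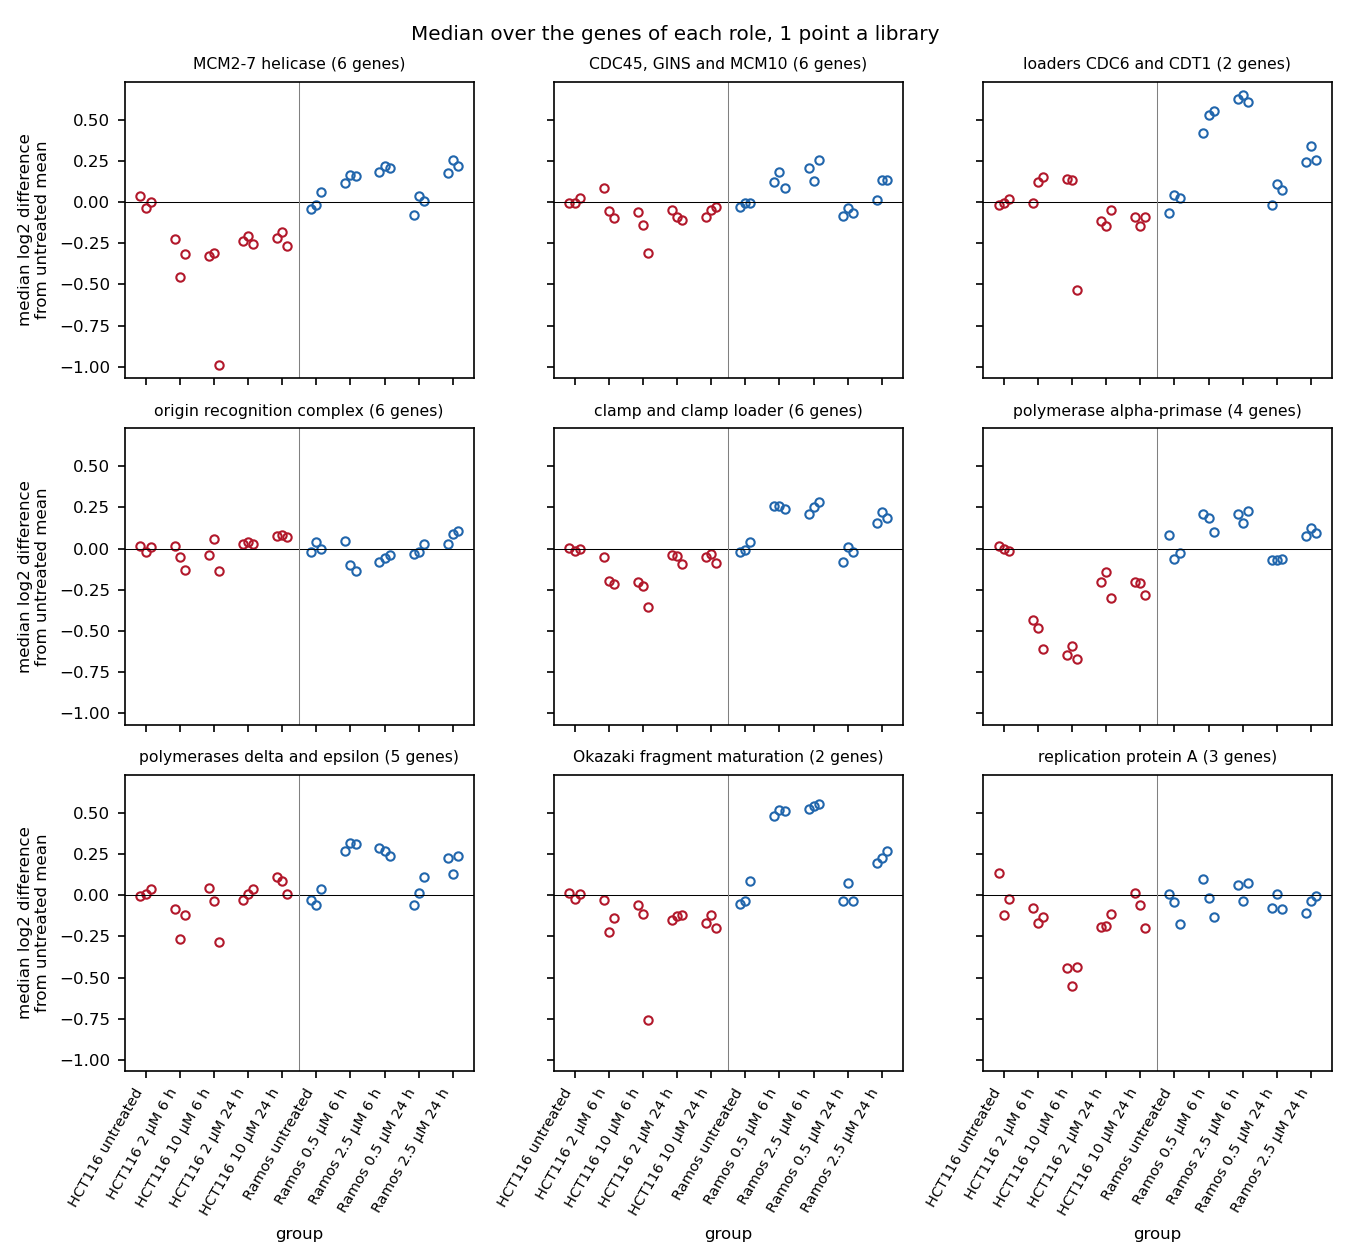
Median log2 difference from the untreated mean of the same line over the members of each of the 9 roles (1 panel per role), with 1 point per library, HCT116 in red and Ramos in blue. Alpha-primase lies at -0.43, -0.48 and -0.61 in HCT116 at 6 h with 2 μM and at -0.64, -0.59 and -0.67 with 10 μM. The loaders and the Okazaki fragment genes lie around 0.63 and 0.54 in Ramos at 6 h with 2.5 μM.

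At 24 h fewer members differed from untreated Ramos. At 0.5 μM 0 members passed the threshold in limma (all genes: 0.0146%, all of it higher), with 3 members, all lower, at an unadjusted p under 0.05 and a smallest adjusted p of 0.832. Member differences at this dose ran from -0.24 to 0.14 and their 95% intervals from -0.46 to 0.31. CDT1 was at 16.6, 17.2 and 17.1 RPKM and CDC45 at 24.8, 26.9 and 27.5, the first just above its untreated libraries and the second overlapping them. At 2.5 μM 12 members were higher and 0 lower (all genes: 4.61%, 3.3% higher and 1.31% lower), with a member median of 0.12 and 0.05 for all genes. CDT1 was highest among them, at 20.01, 21.9 and 18.6 RPKM (0.39 ± 0.08, adjusted p = 0.0369), followed by MCM2 at 48.8, 49.9 and 49.6 (0.30 ± 0.06, adjusted p = 0.0269) and POLD2, a polymerase delta subunit, at 153, 156 and 157 (0.30 ± 0.07, adjusted p = 0.0484). PCNA (0.26 ± 0.04, adjusted p = 0.0142), FEN1 (0.21), LIG1 (0.24), RFC3 (0.23 ± 0.05, adjusted p = 0.0479) and POLD1 (0.23) were higher too, as were MCM4, MCM5, MCM7 and RFC4. CDC45 (0.20 ± 0.05, adjusted p = 0.0619) and CDC6 (0.17) did not pass the test.

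The count of 12 past the threshold at 24 h changed with single libraries and with the scaling. It was not set against the shares of all genes in those runs. Under the median ratio 1 member, PCNA, passed it, and without Ramos 2.5 μM 24 h replicate 2 or replicate 3 it was 0 members, without replicate 1 of that group or untreated replicate 2 it was 1, and without untreated replicate 1 it was 3. All 3 treated libraries lay above all 3 untreated ones for 21 of the 40 members, against 20.6% of all genes.

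Set directly against each other at 24 h, 2.5 μM gave higher values than 0.5 μM for 9 members and lower for 0 (all genes: 4.25%, 2.39% higher and 1.86% lower), namely MCM4, RFC3, MCM2, PCNA, POLD2, FEN1, MCM7, RFC4 and MCM6. MCM4 differed by 0.30 ± 0.05, adjusted p = 0.0166, with 66.0, 71.9 and 69.5 RPKM at 0.5 μM and 79.8, 88.3 and 87.0 at 2.5 μM. PCNA was at 171, 188 and 193 RPKM at 0.5 μM and 217, 224 and 225 at 2.5 μM (0.27 ± 0.05, adjusted p = 0.0192). Neither gene overlapped between the doses, and the same held for 30 of the 40 members, all higher at 2.5 μM, against 17.7% of all genes. Without Ramos 2.5 μM 24 h replicate 2 or replicate 3, 0 of the 9 calls were left, and without replicate 1 of that group 3. The shares of all genes in these runs are not given here.

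Between 6 and 24 h in Ramos, 22 members were lower and 3 higher at 0.5 μM (all genes: 25.4%, 13.5% lower and 11.9% higher), and 17 were lower and 4 higher at 2.5 μM (all genes: 23.0%, 10.4% lower and 12.7% higher). CDC45 fell furthest of the members at both doses (-0.64 ± 0.06, adjusted p = 0.000101, and -0.46 ± 0.04, adjusted p = 7.88e-05), and FEN1 (-0.52 and -0.32) and PCNA (-0.49 and -0.27) fell with it. RPA3 (0.38 ± 0.05, adjusted p = 0.00106, and 0.39 ± 0.06, adjusted p = 0.00217), ORC5 (0.25 and 0.28) and ORC6 (0.17 and 0.14) were higher at 24 h than at 6 h. RPA3 and ORC5, the 2 genes that had fallen at 6 h, stood at 45.7 to 53.7 and 41.3 to 48.3 RPKM over the 6 libraries at 24 h.

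The 2 lines were compared at their nearest doses, 2 μM in HCT116 and 2.5 μM in Ramos, as the difference between their changes from untreated cells. At 6 h this difference passed the threshold for 31 members, 29 with the HCT116 change below the Ramos change and 2 with it above (all genes: 40.6%, 28.4% below and 12.2% above). The member median was -0.40 and that of all genes -0.14. All 6 helicase genes, all 4 alpha-primase genes, both loaders and both Okazaki fragment genes were among the 29. MCM7 had the widest difference (-0.80 ± 0.08, adjusted p = 3.46e-05), its levels going from 246, 247 and 247 to 219.6, 186 and 198 RPKM in HCT116 and from 229, 232 and 252 to 334, 338 and 338 in Ramos. RFC5 (-0.79 ± 0.08, adjusted p = 3.36e-05), CDC45 (-0.78 ± 0.08, adjusted p = 3.66e-05), POLA1 (-0.78 ± 0.10, adjusted p = 0.000119) and CDT1 (-0.76 ± 0.11, adjusted p = 0.00031) came next to it. RPA3 (0.67 ± 0.16, adjusted p = 0.00566) and ORC5 (0.29 ± 0.08, adjusted p = 0.0145) were the 2 members above. The labelled doses differ, and a delivery reagent is named for HCT116 and none for Ramos, so their part in the difference cannot be told apart from that of the line.

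Passing the threshold downward in HCT116 at 2 μM and 6 h and upward in Ramos at 2.5 μM and 6 h were 10 members, which is 71.4% of the 14 and 41.7% of the 24. Among all genes tested in both comparisons 5.49% did so, which is 17.6% of those lower in HCT116 and 29% of those higher in Ramos. The 10 members were GINS1, MCM2, MCM3, MCM4, MCM7, POLA1, POLA2, POLD1, PRIM1 and RFC5. At 24 h 5 members did so (FEN1, MCM2, MCM4, MCM7 and RFC3), beside 0.409% of all genes, and the difference between the lines passed the threshold for 19 members, all with the HCT116 change below the Ramos change (all genes: 16.3%, 9.51% below and 6.81% above). MCM2 differed most at 24 h (-0.57 ± 0.07, adjusted p = 0.000718). Under the median ratio 20 members lay below and 3 above at 6 h, and 19 below and 0 above at 24 h. The opposite calls depended on the scaling more. At 6 h the median ratio took the HCT116 call from GINS1, MCM4, MCM7, POLA2, POLD1 and RFC5. Which of the 10 members kept the Ramos call at 6 h under this scaling is not given here. In Ramos at 2.5 μM and 24 h the median ratio left PCNA alone past the threshold. None of the 5 members that passed in both lines at 24 h thus kept both calls. With an equal sum of RPKM ORC5 turned to -0.18 at 6 h.

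**Figure D5:**
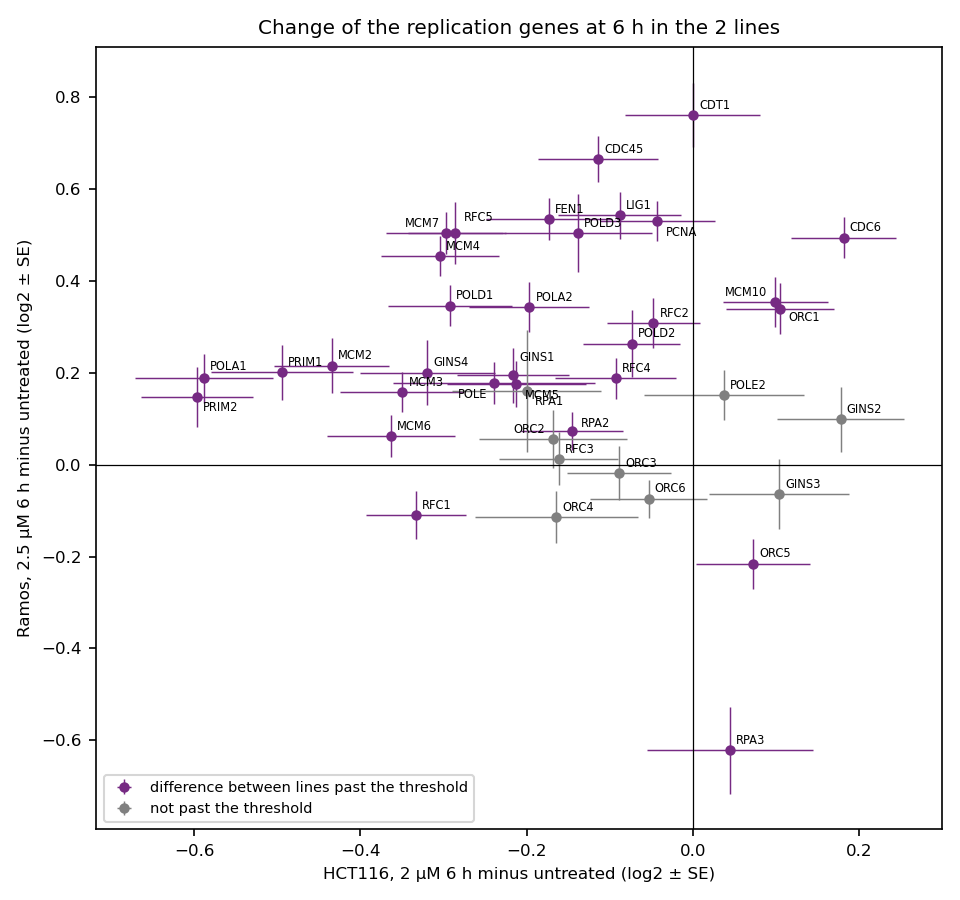
Log2 difference from untreated cells at 6 h for each of the 40 members, with Ramos at 2.5 μM on the horizontal axis and HCT116 at 2 μM on the vertical axis, bars of ± SE and colour where the difference between the lines had an adjusted p under 0.05. In HCT116 32 members lie below 0. MCM7 lies at 0.50 in Ramos and -0.30 in HCT116, whereas RPA3 lies at -0.62 in Ramos.

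In 0 of the 8 comparisons of treated with untreated cells did 5 members (12.5%) pass the threshold, beside 22.6% of all genes tested in all 8. They were GINS2, POLE2, a polymerase epsilon subunit, and the ORC subunits ORC2, ORC3 and ORC6. In the median-ratio scaling GINS2 was higher in HCT116 at 2 μM and 6 h and ORC6 lower in Ramos at 0.5 μM and 6 h. GINS2 was at 27.7 to 29.3 RPKM in untreated and 27.1 to 34.5 in treated HCT116, and at 29.2 to 35.3 and 29.7 to 35.8 in Ramos. POLE2 was at 16.1 to 19.1 and 15.7 to 21.5 RPKM in HCT116 and at 19.3 to 19.998 and 17.8 to 22.9 in Ramos. Their intervals leave room for changes, as GINS2 at 2.5 μM and 6 h in Ramos had a 95% interval of -0.06 to 0.26 and POLE2 one of 0.03 to 0.28. ORC6 was nearest to the threshold at 0.5 μM and 6 h in Ramos, at 54.0, 56.0 and 50.9 RPKM against 58.0, 59.7 and 61.4 untreated (-0.15 ± 0.05, adjusted p = 0.0605).

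Members with and without an E2F match in the promoter were set side by side. In Ramos at 2.5 μM and 6 h, 11 of the 17 members with an E2F match were higher and 0 lower, with a median of 0.19, and of the 17 with a promoter and no match 10 were higher and 1 lower, with a median of 0.20. In HCT116 at 2 μM and 6 h the median was -0.16 in both sets, with 7 and 5 members lower. At 10 μM and 6 h the medians with and without a match were -0.18 and -0.24, with 3 and 6 members lower. In HCT116 at 24 h the medians with and without a match were -0.10 and -0.01 at 2 μM, with 8 and 3 members lower, and -0.12 and -0.0043 at 10 μM, with 8 and 5 lower. The difference between the lines at 24 h had a median of -0.28 with a match and -0.18 without, with 11 and 5 members past the threshold. The 5 members with an E box had a median of -0.20 in HCT116 at 2 μM and 6 h, with 2 lower (MCM2 and MCM7), and the 29 without had one of -0.09, with 10 lower. In Ramos at 2.5 μM and 6 h the medians were 0.22 with 3 of the 5 higher and 0.19 with 18 of the 29 higher. In HCT116 at 24 h they were -0.24 with 3 of the 5 lower and -0.02 with 8 of the 29 lower at 2 μM, and -0.24 with 4 of the 5 lower and -0.0043 with 9 of the 29 lower at 10 μM. These are descriptions of 34 members, and the split was not tested.

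Further replication factors outside the 40 members were mostly higher in Ramos at 6 h too. Of 25 such genes, which cover origin firing, fork protection and chromatin assembly, 18 were higher and 0 lower in Ramos at 2.5 μM and 6 h, with a median of 0.25, among them CLSPN, the adaptor of the replication checkpoint (0.60), and the helicase RECQL4 (0.56). That is a share of 72% past the threshold, beside 27.9% of all genes, whose median was 0.03. In HCT116 at 2 μM and 6 h 2 of the 25 were higher and 9 lower, a share of 44% past the threshold beside 47.3% of all genes, and the median of -0.12 was that of all genes. There the fork factor WDHD1 (-0.42) and the firing factor TICRR (-0.41) were lower, and TIPIN, which protects the fork (0.43), and POLE3, an accessory subunit of polymerase epsilon (0.37), were higher. Of 16 E2F and S phase regulators, 12 were higher and 1 lower in Ramos at 2.5 μM and 6 h with a median of 0.33. Their share past the threshold was 81.2%, again beside 27.9% of all genes, and GMNN is on both lists. The atypical E2F genes E2F7 (0.91) and E2F8 (0.78) were the highest, and CDKN1B, which encodes the CDK inhibitor p27, was lower (-0.80). In HCT116 at 2 μM and 6 h 3 of the 16 were higher, CCNE1 (0.37) and CCNE2 (0.35) among them, and 8 were lower, with CDKN1B again the lowest (-0.65). Here 68.8% of the regulators passed the threshold, beside 47.3% of all genes. Their median of -0.11 was near that of all genes, -0.12.

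Genes of mitosis, which peak after S phase, had more lower than higher calls at 6 h at each dose. Of 20 such genes 5 were higher and 8 lower in Ramos at 2.5 μM and 6 h with a median of -0.09, and 2 higher and 10 lower at 0.5 μM with a median of -0.19. All genes had 17.3% higher and 10.7% lower at 2.5 μM and 13.8% higher and 9.73% lower at 0.5 μM, with medians of 0.03 and 0.02. CCNB1, the mitotic cyclin, fell by 0.83 at 0.5 μM and by 0.76 at 2.5 μM in Ramos, whereas CDK1 rose by 0.33 and 0.26. In HCT116 at 2 μM and 6 h 3 of the 20 were higher and 12 lower with a median of -0.30, and at 10 μM 0 were higher and 13 lower with a median of -0.47. All genes had 15.5% higher and 31.8% lower at 2 μM and 8.84% higher and 21.2% lower at 10 μM, with medians of -0.12 and -0.11, so lower calls outnumbered higher ones among all genes in HCT116 as well. CDC25C, the phosphatase that starts mitosis, fell by 1.17 at 2 μM and by 1.48 at 10 μM, a wider change than that of any of the 40 members there. In the other direction, CDC20 (0.37) and PTTG1 (0.36) were higher at 2 μM. CCNB1, which fell in Ramos, averaged 204 RPKM in HCT116 at 2 μM and 6 h and 161 in untreated HCT116. In bulk RNA, fewer cells in a phase of the cycle and less RNA per cell cannot be told apart.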

How the data were processed

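RNA-Seq of rRNA-depleted, strand-specific total RNA was deposited by the authors as 1 table of RPKM values per gene for 30 libraries, with 0 columns left unmapped. RSEM is named in the submitters' processing notes, without a version. The aligner, genome build, annotation, strand setting and read depth are not given in the sources used here, so the precision of each value rests on its 3 replicates (r = 0.973 to 0.996 over 30 replicate pairs of log2 values, 0 identical). Symbols and positions were taken from GENCODE release 29 (GRCh38), which held 57388 of 57992 gene IDs.

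The table held no counts, so no count model was used. log2(RPKM + 0.5) was fitted with limma 3.58.1 in R 4.3.3 (empirical Bayes with trend) for genes with a mean of at least 0.5 RPKM over the libraries compared, in 19 comparisons, with Benjamini-Hochberg adjustment over all genes tested and a threshold of 0.05. Intervals of 95% used limma's moderated variance. The fit was also run on simulated data with independent noise for each gene, which does not model shifts shared by the genes of a library. Its outcome is not given here. Alternatives were pseudocounts of 0.1 and 1, no filter, a mean of at least 2 RPKM, rescaling by the median ratio or to an equal sum, a block on replicate number, all groups in one fit and leaving out each library. Where no share of all genes stands beside a member count under an alternative, that count was not set against all genes. The members and the lists of other genes were chosen with earlier results of these data known. By a rule set together with the tests, values were given for the 3 widest rises and falls past the threshold in each treated comparison and for 17 genes standing for the roles, and other lists by counts, median and up to 2 genes each way. Other genes named in the text were chosen after their values were seen. Same-numbered libraries did not deviate together (every pair above a correlation of 0.1 in 0 comparisons), so the numbers were not treated as pairs. A further B cell marker is not reported here.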

Additional observations from a re-analysis of the deposited data

Results flagged for a closer look

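The change from untreated cells differed between HCT116 at 2 μM and Ramos at 2.5 μM, by the interaction of line and treatment in limma with an adjusted p under 0.05, for 31 members at 6 h and 19 at 24 h. Among all genes 40.6% passed this test at 6 h and 16.3% at 24 h, and their medians were -0.14 and -0.0018. Under the median ratio fewer members passed it at 6 h. Values are the log2 change in HCT116 minus that in Ramos. The labelled doses differ (the study's methods name 2.5 μM for HCT116), and a delivery reagent is named for HCT116 and none for Ramos, so the line cannot be told apart from these.

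At 6 h the helicase genes differed by -0.65 (MCM2), -0.51 (MCM3), -0.76 (MCM4), -0.39 (MCM5), -0.43 (MCM6) and -0.80 (MCM7). Of the factors that activate the helicase, MCM10 differed by -0.26, GINS1 by -0.41, GINS4 by -0.52 and CDC45 by -0.78. The loaders CDC6 and CDT1 differed by -0.31 and -0.76, and the ORC subunit ORC1 by -0.24. In the clamp and clamp loader the values were -0.57 (PCNA), -0.22 (RFC1), -0.36 (RFC2), -0.28 (RFC4) and -0.79 (RFC5). Alpha-primase differed in every subunit, with -0.78 (POLA1), -0.54 (POLA2), -0.70 (PRIM1) and -0.74 (PRIM2). The polymerase delta and epsilon genes differed by -0.64 (POLD1), -0.34 (POLD2), -0.64 (POLD3) and -0.42 (POLE), the Okazaki fragment genes by -0.71 (FEN1) and -0.63 (LIG1), and RPA2 by -0.22. ORC5 and RPA3 differed in the other direction, by 0.29 and 0.67.

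At 24 h the helicase genes differed by -0.57 (MCM2), -0.33 (MCM3), -0.39 (MCM4), -0.31 (MCM5), -0.45 (MCM6) and -0.52 (MCM7), and GINS1 by -0.36. CDC6 and CDT1 differed by -0.27 and -0.49. Of the clamp and its loader, PCNA differed by -0.26, RFC3 by -0.41, RFC4 by -0.23 and RFC5 by -0.18. POLA1 differed by -0.44, PRIM2 by -0.32, POLD2 by -0.34, FEN1 by -0.44, LIG1 by -0.28 and RPA2 by -0.33.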

How the results depend on the processing

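Counts below are members past the threshold, without the shares of all genes under the same settings. Rescaling to an equal sum gave 32 in HCT116 at 2 μM and 6 h, 27 at 10 μM and 6 h, 19 between 24 and 6 h at 2 μM, 33 in Ramos at 2.5 μM and 24 h, 13 between 24 and 6 h at 2.5 μM, 32 between the Ramos doses at 24 h and 38 for the lines at 24 h, and it turned CDC6 in HCT116 at 2 μM and 6 h (-0.15), CDC45 in HCT116 at 10 μM and 24 h (-0.034) and ORC5 between the lines at 6 h (-0.18). The median ratio gave 1 in Ramos at 2.5 μM and 24 h and 0 between 24 and 6 h in HCT116 at 10 μM. With all groups in one fit it was 8 in HCT116 at 2 μM and 6 h, 20 at 10 μM and 6 h, 0 at 2 μM and 24 h, 2 at 10 μM and 24 h, 7 and 10 between 24 and 6 h at 2 and 10 μM, 18 between the Ramos doses at 24 h and 10 for the lines at 24 h. Without a filter it was 7 in HCT116 at 2 μM and 24 h, 5 and 1 between 24 and 6 h at 2 and 10 μM, and 0 in Ramos at 2.5 μM and 24 h and between its doses at 24 h. The causes were not tested.

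A block on replicate number gave 8 in HCT116 at 2 μM and 24 h, 1 in Ramos at 2.5 μM and 24 h, 0 between 24 and 6 h in HCT116 at 10 μM and 11 for the lines at 24 h, and in 0 comparisons did every same-numbered pair correlate above 0.1. Leaving out each library gave 3 to 22 in HCT116 at 10 μM and 6 h, 6 to 12 at 2 μM and 24 h (6 without untreated replicate 3, 9 without untreated replicate 1 or 2 μM 24 h replicate 1), 6 to 11 between 24 and 6 h at 2 μM (6, 6 and 7 without each 24 h library), 0 to 8 at 10 μM (8 without 10 μM 6 h replicate 3, and 0 without the other 6 h libraries or any 24 h library), 17 to 22 in Ramos at 2.5 μM and 6 h (17 without replicate 2 or 3 of that group), 0 to 13 at 2.5 μM and 24 h and 0 to 10 between the Ramos doses at 24 h. Depth is unknown, and the precision of a member rests on 3 libraries a group.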

Other observations

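In HCT116 at 24 h some genes beside the 40 members were higher than in untreated cells. CHTF18, a subunit of an alternative clamp loader, differed by 0.56 at 2 μM and 0.61 at 10 μM on the log2 scale, and RECQL4 by 0.28 and 0.34, all past the threshold in limma. WDHD1 was lower at both doses (-0.19 and -0.24) and MCM8 at 10 μM (-0.19). Of the 25 other replication factors, 4 were higher and 1 lower at 2 μM, and 2 higher and 2 lower at 10 μM. That is 20% and 16% past the threshold, beside 27.3% and 35.2% of all genes. Of the 20 mitosis genes, 5 were higher and 1 lower at 2 μM and 24 h, and 7 higher and 2 lower at 10 μM, with CDC20, an activator of the anaphase-promoting complex, at 0.33 and 0.36 and CDK1 at -0.29 and -0.18. These shares past the threshold, 30% and 45%, stood near those of all genes, 27.3% and 35.2%. Against 6 h, 12 of the mitosis genes were higher and 0 lower at 2 μM (all genes: 30.9% higher and 9.85% lower, with a median of 0.16), and 11 higher and 0 lower at 10 μM (all genes: 5.8% higher and 2.06% lower, with a median of 0.15). Between these times at 2 μM the direction of the 40 members turned with the median ratio, which was not run for the mitosis genes.

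In Ramos, mitosis genes were more often higher than lower at 24 h against 6 h, with 9 higher and 3 lower at 0.5 μM (all genes: 11.9% higher and 13.5% lower) and 10 higher and 1 lower at 2.5 μM (all genes: 12.7% higher and 10.4% lower), while 12 of the 16 E2F and S phase regulators at 0.5 μM and 8 at 2.5 μM were lower. At 2.5 μM and 24 h 3 of these regulators were still higher than in untreated Ramos, CDC25A, a phosphatase that activates CDK2 (0.39), and E2F1 (0.36) among them. That is 18.8% of the regulators, beside 4.61% of all genes past the threshold.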
